A study of Mus musculus with 8 samples.

Results

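Genes of Wnt signalling were followed across 3 mouse fat depots in sorted adipose-derived stem cells (ASCs), the progenitors from which white fat cells form. The members are all genes whose symbol begins with Wnt, Fzd, Sfrp, Dkk or Rspo followed by a number (or Dkkl), plus the R-spondin receptors Lgr4, Lgr5 and Lgr6, the co-receptors Lrp5, Lrp6, Ror1 and Ror2, the ubiquitin ligases Znrf3 and Rnf43, and Axin2. They number 48 of the 17967 gene symbols analysed. Wif1, which the rule also names, was not among these symbols. The cells came from male C57BL/6J wild type mice on a chow diet and were sorted by flow cytometry after collagenase digestion of the fat. The groups are subcutaneous inguinal (SWAT), epididymal (EWAT) and perirenal (NWAT) fat, with 2 bulk RNA libraries each, and mesenteric fat (MWAT) was not analysed here. The labels name neither the antibodies of the sort nor the number of animals behind a library, and ages are not given in them. Nothing says that the libraries of a depot came from separate mice, so every p-value reflects the spread of these samples alone, and that spread may be technical.

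Wnt ligands are secreted lipid-modified glycoproteins that bind Frizzled receptors. Together with the co-receptors LRP5 or LRP6 they stabilise beta-catenin, which acts with TCF/LEF factors on target genes such as Axin2, while signalling through ROR receptors is independent of beta-catenin. Secreted Frizzled-related proteins (SFRPs) bind Wnts, and some Dickkopf proteins can block LRP5 and LRP6. R-spondins acting with LGR receptors keep Frizzleds at the surface by removing ZNRF3 and RNF43. In fat, beta-catenin signalling in progenitors, with Wnt10b as the best known ligand, is known for holding back adipocyte formation.

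Library totals ran from 20026413 to 20638724 estimated read counts. The sorted cells carried progenitor markers in every library, given in CPM (counts scaled to library depth with edgeR's TMM factors). Pdgfra stood between 935 and 1442 CPM and Cd34 between 1226 and 1671 CPM. Other progenitor markers differed by depot, and not in 1 direction. All 9 progenitor markers summed to 45944.9 and 42762.3 CPM in SWAT, 24058.5 and 25884.7 CPM in EWAT and 24812.4 and 24449.7 CPM in NWAT. Col1a1 had 29851.2 and 26636.1 CPM in SWAT, 3758.31 and 4900.65 CPM in EWAT and 6629.77 and 6007.94 CPM in NWAT. Dcn had 8186.57 and 8590.05 CPM in SWAT, 14957.5 and 15315.1 CPM in EWAT and 8750.59 and 9642.29 CPM in NWAT. Summed markers of macrophages stayed between 11.8 and 32.7 CPM, of adipocytes between 1.43 and 8.26 CPM and of epithelium between 0 and 0.286 CPM. The markers chosen for kidney and epididymal epithelium (Umod, Slc34a1, Lcn5 and Defb20) were not among the gene symbols. Carry-over of those cells could therefore not be assessed. Endothelial markers summed to between 199 and 367 CPM, of which Tek alone gave 178 to 355 CPM (highest in NWAT) while Pecam1 stood between 3.96 and 8.62 CPM. Mural and smooth muscle markers summed to 48.3 and 69.9 CPM in SWAT, 55.9 and 54.8 CPM in EWAT and 26.9 and 23.2 CPM in NWAT, with Myh11 at 27.1 and 23.8 CPM in EWAT against 1.02 to 5.22 CPM elsewhere. Schwann cell markers summed to 11.7 and 16.3 CPM in SWAT, 4.53 and 6.06 CPM in EWAT and 5.20 and 4.56 CPM in NWAT. Mesothelial markers differed by depot. Wt1, which some fat progenitors also express, had 0 CPM in both SWAT libraries, 152 and 161 CPM in EWAT and 106 and 135 CPM in NWAT. The other 8 mesothelial markers summed to 3.51 and 4.27 CPM in SWAT, 9.34 and 9.07 CPM in EWAT and 13.2 and 11.6 CPM in NWAT. Krt19 alone gave 3.18 and 3.11 CPM of this in SWAT, 0.607 and 0.808 CPM in EWAT and 6.39 and 6.21 CPM in NWAT, and the 7 markers without it summed to 0.329 and 1.16 CPM in SWAT, 8.73 and 8.26 CPM in EWAT and 6.82 and 5.38 CPM in NWAT. The defining marker Msln stood at 0 and 0.0527 CPM in SWAT, 1.26 and 1.30 CPM in EWAT and 0.906 and 0.631 CPM in NWAT. Dpp4 and Pi16, markers of interstitial progenitors, were lowest in EWAT. Dpp4 had 516 and 464 CPM in SWAT, 238 and 226 CPM in EWAT and 728 and 653 CPM in NWAT, and Pi16 had 2055 and 1804 CPM in SWAT, 587 and 596 CPM in EWAT and 3753 and 2971 CPM in NWAT. The part of these cell populations in the results was not tested, and fewer cells of a type and less RNA per cell cannot be told apart in bulk libraries.

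Of the 48 members, 37 passed the filter on low counts and 11 did not. Of the 37, 33 passed a joint test for any difference between the depots (edgeR quasi-likelihood, adjusted p under 0.05), where 41.7% of all 13694 tested genes did. The filter can let a member in through a single depot where it is high, so this share describes the members and supports nothing. Of the tested members, 7 (Fzd6, Fzd9, Lgr5, Rspo2, Wnt1, Wnt6 and Wnt16) were below the filter's minimum in at least 1 library of a depot. By size, 24 of 37 differed in the joint test and by at least 2-fold between the highest and lowest depot mean. Of all tested genes, 15.4% did. All of the 7 but Fzd6 are among the 24, so the filter bears on this share too, and it supports nothing either. These 24 are described one by one below.

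In SWAT against EWAT, 17 members were higher and 12 lower (45.9% and 32.4% of the 37), against 18.0% and 18.7% of all tested genes. The median absolute log2 fold change was 1.03 over the tested members and 0.32 over all tested genes. In SWAT against NWAT, 4 were higher and 14 lower (10.8% and 37.8%), against 9.07% and 9.83% of all genes. The median absolute values were 0.51 and 0.22. In EWAT against NWAT, 6 were higher and 20 lower (16.2% and 54.1%), against 13.3% and 14.0% of all genes. The median absolute values were 0.99 and 0.27. The higher calls in SWAT against NWAT and in EWAT against NWAT lay near the shares of all genes. A depot differed from both others in the same direction for 29 members (78.4%), against 30.0% of all genes. EWAT was low for 14 of them (37.8% of tested members against 8.57% of genes) and high for 6 (16.2% against 9.02%). SWAT was low for 8 (21.6% against 5.88%) and high for 4 (10.8% against 6.21%). NWAT was high for 8 (21.6% against 3.42%), and some members were counted under more than 1 depot. NWAT was low for 0 members (2.35% of genes) by edgeR, and for 0 by DESeq2 and by limma on FPKM, while at an unadjusted p under 0.05 edgeR gave 1, Rspo2. The filter bears on these counts, shares and medians too, so they describe the members and support nothing. Lgr5, Wnt1 and Wnt16 are among the members low in EWAT, and Fzd9 is among those high there. Lgr5 and Rspo2 are among those high in SWAT. The 3 comparisons share libraries and are not independent. Scaling by library totals alone, with no TMM factor, moved the median of all genes by -0.24 in SWAT against EWAT and by -0.19 in SWAT against NWAT, and the split of members in SWAT against EWAT became 14 higher and 16 lower. No call of a member in a pair turned to the opposite sign under the 14 alternatives run.

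**Figure D1:**
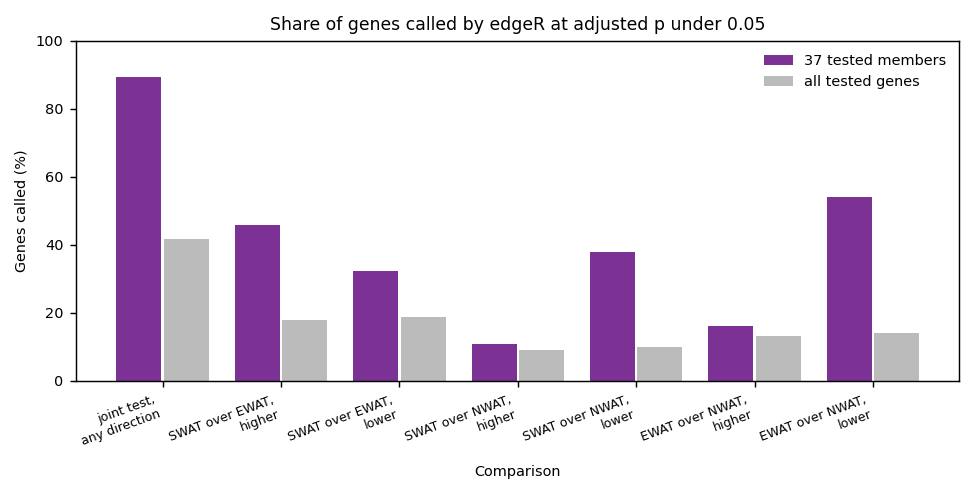
Percentage of genes called by edgeR at an adjusted p under 0.05, for the 37 tested members (purple bars) and for all 13694 tested genes (grey bars), in the joint test and in each direction of the 3 pairs. The widest gap in a single direction is for EWAT lower than NWAT, at 54.1% of members and 14.0% of all genes. The filter on low counts bears on the members' shares, which describe the members and support nothing.

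**Figure D2:**
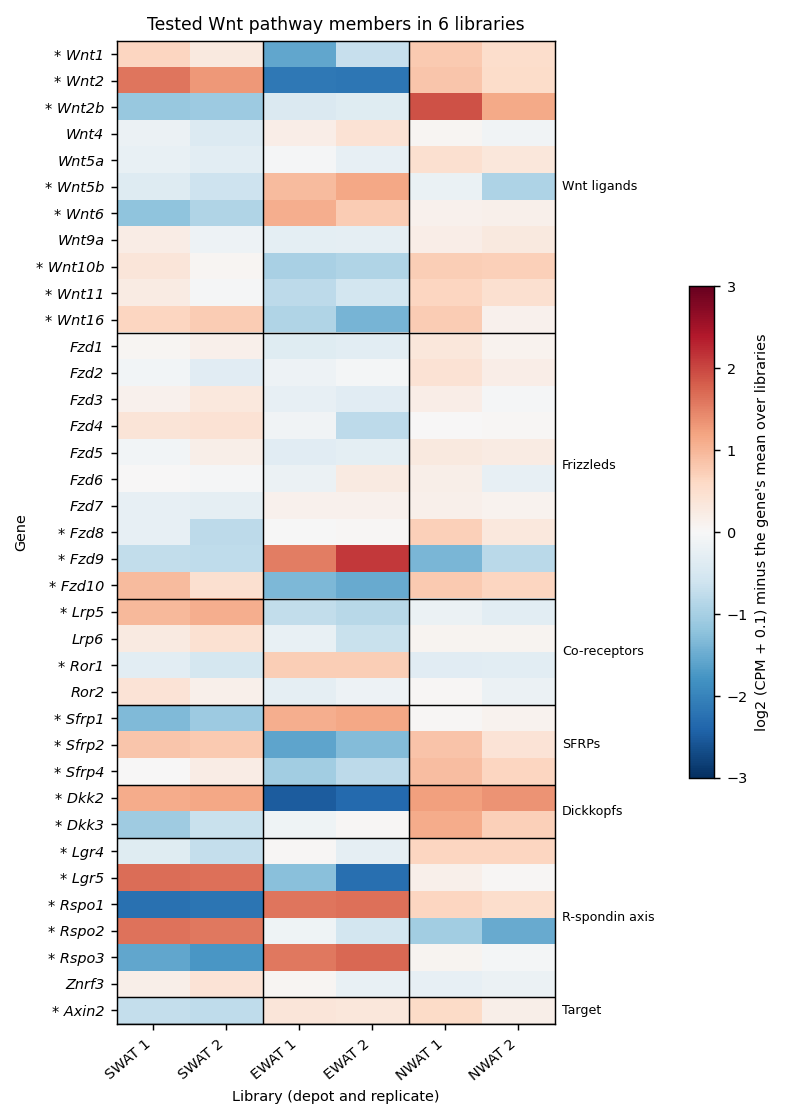
Each row is a tested member and each column a library. Colour gives log2 (CPM + 0.1) minus the gene's mean over the 6 libraries, and asterisks mark the 24 members that differed in the joint test with at least a 2-fold range of depot means. Wnt2 and Dkk2 are lowest in both EWAT libraries and Rspo1 and Rspo3 in both SWAT libraries.

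Of the 11 tested Wnt ligands, Wnt2, Wnt10b, Wnt11, Wnt1 and Wnt16 were lower in EWAT than in both other depots, and Wnt5b was higher there than in both. Levels per transcript length, given by the authors as FPKM (fragments scaled to transcript length and depth), were led by 3 ligands in NWAT, where Wnt5a averaged 39.6 ± 3.03 FPKM, Wnt11 36.5 ± 2.33 FPKM and Wnt10b 27.5 ± 0.325 FPKM (SD, n = 2), with Wnt5a above Wnt11 in both libraries although their mean ± SD ranges overlapped. In SWAT, Wnt11 (23.0 ± 3.66 FPKM) and Wnt5a (22.0 ± 0.643 FPKM) had overlapping mean ± SD ranges, followed by Wnt10b (16.8 ± 2.04 FPKM) and Wnt2 (16.1 ± 1.85 FPKM), whose ranges also overlapped. In EWAT the order was Wnt5a (27.3 ± 2.74 FPKM), Wnt11 (16.4 ± 2.18 FPKM) and Wnt5b (11.3 ± 1.34 FPKM), and Wnt2 stood at 1.09 ± 0.0283 FPKM. The 15 listed ligands summed to 92.7 and 79.9 FPKM in SWAT, 68.9 and 70.9 FPKM in EWAT and 135 and 121 FPKM in NWAT. Wnt2 thus made up 18.7% of the summed ligand FPKM in SWAT, 1.56% in EWAT and 7.93% in NWAT, and Wnt5b 3.77%, 16.2% and 2.84% in the same depots. On log2 (FPKM + 0.1) values the median of all genes moved by -0.23 in SWAT over EWAT and by -0.19 in SWAT over NWAT. This is near the shift on library totals. FPKM levels therefore run lower in SWAT than TMM-scaled CPM, and calls lost on FPKM and on library totals are not separate checks.

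Wnt2, a ligand of the beta-catenin branch, had 56.6 and 46.2 CPM in SWAT, 4.15 and 4.09 CPM in EWAT and 33.2 and 27.4 CPM in NWAT. The 3 depots did not overlap, with EWAT lowest by a wide margin. Its log2 fold change was 3.64 ± 0.16 in SWAT over EWAT (SE; edgeR adjusted p = 1.32e-08), 0.76 ± 0.13 in SWAT over NWAT (edgeR adjusted p = 0.00145) and -2.88 ± 0.16 in EWAT over NWAT (edgeR adjusted p = 2.13e-07). Wnt10b had 55.4 and 44.9 CPM in SWAT, 21.8 and 23.1 CPM in EWAT and 71.4 and 71.2 CPM in NWAT. It was higher in SWAT than in EWAT by 1.16 ± 0.12 on the log2 scale (edgeR adjusted p = 1.59e-05) and lower in EWAT than in NWAT (-1.67 ± 0.12, edgeR adjusted p = 1.46e-06). Wnt11, best known for the planar polarity branch, had 58.5 and 48.2 CPM in SWAT, 28.3 and 33.3 CPM in EWAT and 76.6 and 68.8 CPM in NWAT. Wnt11 followed the same order of depots as Wnt10b, at 0.79 ± 0.13 in SWAT over EWAT (edgeR adjusted p = 5.19e-04) and -1.24 ± 0.13 in EWAT over NWAT (edgeR adjusted p = 2.43e-05). Both were also lower in SWAT than in NWAT, Wnt10b by -0.51 ± 0.11 and Wnt11 by -0.45 ± 0.12 (edgeR adjusted p = 0.00801 and 0.0257). Those 2 calls were lost without SWAT replicate 2 (-0.36 and -0.31), NWAT replicate 1 (-0.51 and -0.37) or NWAT replicate 2 (-0.51 and -0.52).

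Wnt2b, a close relative of Wnt2, showed another pattern and was high in NWAT. It had 2.19 and 2.27 CPM in SWAT, 3.64 and 3.82 CPM in EWAT and 18.9 and 11.0 CPM in NWAT, so that both NWAT libraries lay above the other 4 but differed from each other. The log2 fold change was -2.74 ± 0.27 in SWAT over NWAT (edgeR adjusted p = 3.43e-05) and -2.00 ± 0.24 in EWAT over NWAT (edgeR adjusted p = 1.41e-04). In SWAT over EWAT it was -0.74 ± 0.29 and did not pass (edgeR adjusted p = 0.0696). Wnt5b was the ligand that stood high in EWAT, with 8.93 and 7.54 CPM in SWAT, 22.7 and 26.3 CPM in EWAT and 10.2 and 6.06 CPM in NWAT. Its log2 fold change was -1.57 ± 0.21 in SWAT over EWAT (edgeR adjusted p = 2.47e-04) and 1.59 ± 0.21 in EWAT over NWAT (edgeR adjusted p = 2.97e-04), while SWAT and NWAT overlapped. Wnt5a, a relative of Wnt5b and the main ligand of ROR receptors, had 119 and 111 CPM in SWAT, 134 and 117 CPM in EWAT and 192 and 175 CPM in NWAT. It was lower than in NWAT in SWAT (-0.68 ± 0.11, edgeR adjusted p = 0.00122) and in EWAT (-0.54 ± 0.11, edgeR adjusted p = 0.00370). The second of these calls was lost without NWAT replicate 1 (-0.48).

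The remaining ligands were at low levels. Wnt1, a ligand of the beta-catenin branch, had 1.86 and 1.42 CPM in SWAT, 0.327 and 0.674 CPM in EWAT and 2.05 and 1.70 CPM in NWAT, resting on 61, 22 and 78 reads per depot. EWAT was lowest in both libraries, with a ratio of 3.26 (95% interval 1.97 to 5.57) in SWAT over EWAT and 0.268 (0.159 to 0.436) in EWAT over NWAT. All such intervals are exact and cover counting error only. Wnt16 had 0.877 and 0.949 CPM in SWAT, 0.233 and 0.135 CPM in EWAT and 0.954 and 0.582 CPM in NWAT, and its ratio was 4.99 (2.27 to 12.5) in SWAT over EWAT on 34 and 8 reads. Wnt6 had 0.110 and 0.158 CPM in SWAT, 0.934 and 0.719 CPM in EWAT and 0.429 and 0.437 CPM in NWAT, and its ratio was 0.163 (0.0499 to 0.417) in SWAT over EWAT on 5 and 36 reads. These differences passed edgeR's test in SWAT over EWAT, at adjusted p = 0.00813 for Wnt1, 0.00798 for Wnt16 and 0.00586 for Wnt6. Wnt6 reached the count minimum in EWAT alone, the depot where it is high, so its p against EWAT follows in part from the filter and is no support. The same holds for Fzd9. Wnt1 and Wnt16 reached the minimum in both libraries of SWAT and NWAT alone, where they are high. Their p against EWAT is limited in the same way. Each call in SWAT over EWAT was lost without 1 library: that of Wnt1 without SWAT replicate 1 (log2 fold change 1.49, against 1.70 with all libraries), that of Wnt6 without SWAT replicate 1 (-2.34, against -2.57) and that of Wnt16 without SWAT replicate 2 (2.22, against 2.28) or EWAT replicate 2 (1.95). For Wnt16, the call in EWAT over NWAT (log2 fold change -2.03 ± 0.56, edgeR adjusted p = 0.0201) was lost without EWAT replicate 2 (-1.70) or NWAT replicate 1 (-1.63) and in DESeq2 (-2.07). Without EWAT replicate 2, the fold of Wnt1 moved by more than 1.5 times, to a log2 value of 2.32 in SWAT over EWAT and of -2.50 in EWAT over NWAT (-1.89 with all libraries). Wnt9a differed in the joint test with a narrower range of 9.10 to 13.7 CPM, and its 1 pairwise call (EWAT over NWAT, -0.53 ± 0.15, edgeR adjusted p = 0.0221) was lost without EWAT replicate 2 (-0.54), NWAT replicate 1 (-0.58) or NWAT replicate 2 (-0.47), in DESeq2 (-0.53) and in limma on log2 (FPKM + 0.1) values (-0.47). Wnt4, at 1.48 to 2.74 CPM, did not pass (joint edgeR adjusted p = 0.178). Wnt7a, Wnt7b, Wnt8b and Wnt9b had at most 2 reads in any library and were not tested.

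**Figure D3:**
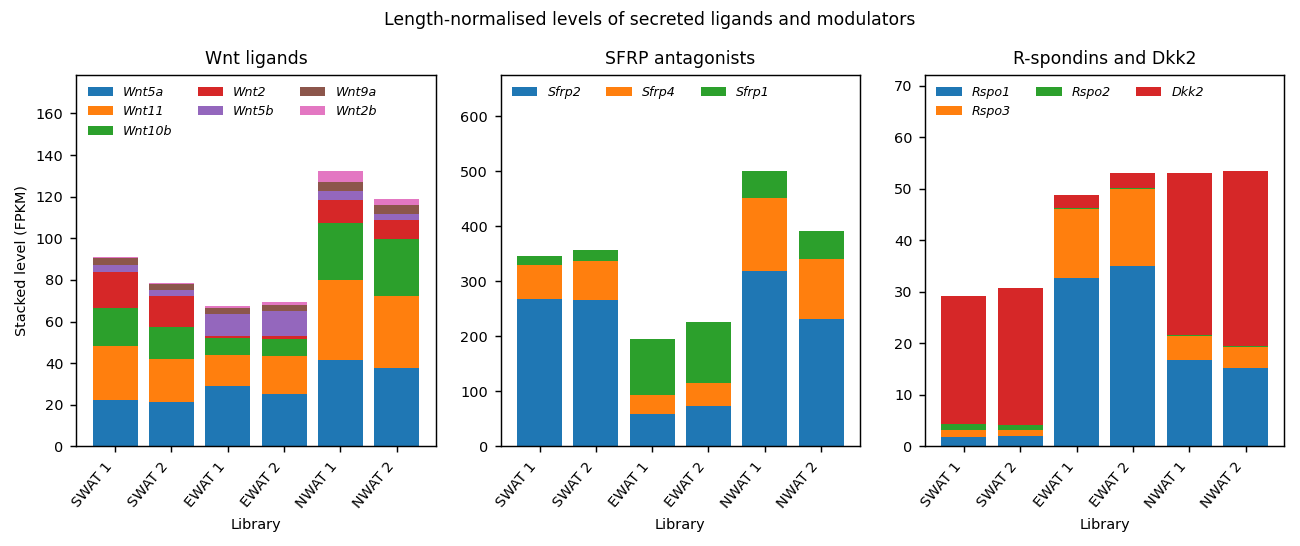
Stacked bars of the authors' FPKM values in each library for the 7 most abundant Wnt ligands (left), the SFRPs Sfrp2, Sfrp4 and Sfrp1 (middle), and the R-spondins with Dkk2 (right). Sfrp2 is the largest part of the SFRP bar in SWAT and NWAT and Sfrp1 in EWAT, and the R-spondin and Dkk2 bars change places between SWAT and EWAT.

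SFRPs led the members by mean FPKM in each depot (Sfrp2 in SWAT and NWAT, Sfrp1 in EWAT), and their mix differed by depot. Sfrp2 averaged 267 ± 2.03 FPKM in SWAT, 66.0 ± 9.98 FPKM in EWAT and 275 ± 61.3 FPKM in NWAT (SD, n = 2). Ranked by FPKM, it was the 182nd and 178th most abundant gene in the SWAT libraries, the 1008th and 889th in EWAT and the 177th and 260th in NWAT. Sfrp1 averaged 18.1 ± 2.53 FPKM in SWAT, 107 ± 5.95 FPKM in EWAT and 49.7 ± 0.940 FPKM in NWAT. Of the summed FPKM of the 4 SFRPs, Sfrp2 held 75.9% in SWAT, 31.2% in EWAT and 61.6% in NWAT, and Sfrp1 held 5.14%, 50.5% and 11.1% in the same depots. The sum itself was 346 and 358 FPKM in SWAT, 196 and 226 FPKM in EWAT and 501 and 391 FPKM in NWAT.

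In CPM, Sfrp2 stood at 586 and 561 in SWAT, 110 and 132 in EWAT and 592 and 437 in NWAT. EWAT lay below the other depots, while SWAT lay within the range of NWAT. Its log2 fold change was 2.25 ± 0.16 in SWAT over EWAT (edgeR adjusted p = 8.91e-07) and -2.09 ± 0.16 in EWAT over NWAT (edgeR adjusted p = 2.96e-06), and 0.16 ± 0.15 in SWAT over NWAT (edgeR adjusted p = 0.533). Sfrp1 had 80.2 and 95.1 CPM in SWAT, 428 and 452 CPM in EWAT and 207 and 215 CPM in NWAT, an order of depots in which none overlapped. Sfrp1 differed in all 3 pairs, at -2.33 ± 0.12 in SWAT over EWAT (edgeR adjusted p = 5.80e-08), -1.27 ± 0.12 in SWAT over NWAT (edgeR adjusted p = 1.56e-05) and 1.06 ± 0.12 in EWAT over NWAT (edgeR adjusted p = 4.25e-05). Sfrp4 had 119 and 137 CPM in SWAT, 57.5 and 68.1 CPM in EWAT and 225 and 185 CPM in NWAT, and its depots did not overlap either. Its log2 fold change was 1.03 ± 0.13 in SWAT over EWAT (edgeR adjusted p = 1.13e-04), -0.68 ± 0.13 in SWAT over NWAT (edgeR adjusted p = 0.00341) and -1.71 ± 0.13 in EWAT over NWAT (edgeR adjusted p = 3.47e-06). The call of Sfrp4 in SWAT over NWAT was lost without SWAT replicate 1 (-0.58) or NWAT replicate 1 (-0.53). Sfrp5, known as an adipokine, had at most 4 reads in any library and was not tested.

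Dkk2, a Dickkopf that binds LRP5 and LRP6, was low in EWAT alone. It had 104 and 107 CPM in SWAT, 8.50 and 9.52 CPM in EWAT and 113 and 123 CPM in NWAT. The EWAT libraries stood far below the other 4. The log2 fold change was 3.55 ± 0.12 in SWAT over EWAT (edgeR adjusted p = 1.77e-09) and -3.71 ± 0.12 in EWAT over NWAT (edgeR adjusted p = 2.33e-08), with -0.16 ± 0.10 in SWAT over NWAT (edgeR adjusted p = 0.317). That last difference passed on library totals alone (-0.35) and in limma on log2 (FPKM + 1) values (-0.33). Dkk3, a divergent family member, had 1.26 and 1.69 CPM in SWAT, 2.52 and 2.83 CPM in EWAT and 6.06 and 4.56 CPM in NWAT. It was lower in SWAT than in NWAT by -1.84 ± 0.27 (edgeR adjusted p = 4.69e-04), lower in EWAT than in NWAT by -0.99 ± 0.24 (edgeR adjusted p = 0.0107) and lower in SWAT than in EWAT by -0.86 ± 0.28 (edgeR adjusted p = 0.0320). The call in EWAT over NWAT was lost without NWAT replicate 1 (-0.77), and that in SWAT over EWAT without SWAT replicate 1 (-0.66), SWAT replicate 2 (-1.08) or EWAT replicate 2 (-0.76) and in DESeq2 (-0.85). Dkk1 had 1 to 11 reads a library, and Dkk4 and Dkkl1 at most 2, and none of them was tested.

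Dkk2, Sfrp2 and Wnt2 were the 3 most abundant genes among the members that were at least 4-fold lower in EWAT than in both other depots, chosen after their values were seen, and the 250 bases before an annotated start of each are shown. Windows were read from a supplied set of promoters on GRCm38.p6, which holds one for 32 of the 48 members, 36 windows in all. The other members have annotated coordinates but no window in that set. Each window was searched, from 250 bases before to 50 bases after the start and on both strands, for the TCF/LEF letters CTTTGAT and CTTTGTT, which differ in 1 letter and cannot match at the same place. Dkk2 is read from chr3:132085042-132085291 (+ strand), Sfrp2 from chr3:83766071-83766320 (+ strand) and Wnt2 from chr6:18030446-18030695 (- strand), 5′ to 3′. The windows of Sfrp2 and Wnt2 lie wholly inside the full annotated span of their gene, which has a start further upstream, and 26 bases of that of Dkk2 lie inside its span.
Dkk2: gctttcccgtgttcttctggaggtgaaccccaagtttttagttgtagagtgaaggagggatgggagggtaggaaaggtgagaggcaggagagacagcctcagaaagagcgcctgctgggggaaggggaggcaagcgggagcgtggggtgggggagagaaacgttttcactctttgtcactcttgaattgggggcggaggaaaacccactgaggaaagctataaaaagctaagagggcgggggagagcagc
Sfrp2: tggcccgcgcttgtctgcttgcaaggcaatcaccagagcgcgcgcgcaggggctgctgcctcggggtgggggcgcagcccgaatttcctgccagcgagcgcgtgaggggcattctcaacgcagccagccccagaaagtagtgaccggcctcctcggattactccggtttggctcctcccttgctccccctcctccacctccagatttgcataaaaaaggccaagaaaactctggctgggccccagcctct
Wnt2: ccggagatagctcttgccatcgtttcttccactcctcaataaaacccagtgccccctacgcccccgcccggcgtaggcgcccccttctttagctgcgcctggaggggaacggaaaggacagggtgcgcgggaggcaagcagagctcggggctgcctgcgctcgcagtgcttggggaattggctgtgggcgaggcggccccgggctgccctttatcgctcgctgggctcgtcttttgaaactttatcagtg
None of these 3 windows held the letters searched. They held 7, 16 and 20 CG dinucleotides, against a median of 18.5 over the members' windows and of 6 over all windows. The letters were present in 4 of the 36 member windows (11.1%) and in 9.33% of all 32851 windows. The windows of Wnt11 (chr7:98834862-98835111, + strand) and Wnt5b (chr6:119449387-119449636, - strand) held CTTTGAT, shown in capitals, which is read as ATCAAAG where it lies on the other strand.
Wnt11: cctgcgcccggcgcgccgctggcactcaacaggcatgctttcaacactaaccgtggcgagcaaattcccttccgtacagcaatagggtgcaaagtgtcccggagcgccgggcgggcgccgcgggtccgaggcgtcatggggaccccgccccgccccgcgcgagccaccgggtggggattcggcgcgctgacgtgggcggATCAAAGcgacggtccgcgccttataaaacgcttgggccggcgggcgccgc
Wnt5b: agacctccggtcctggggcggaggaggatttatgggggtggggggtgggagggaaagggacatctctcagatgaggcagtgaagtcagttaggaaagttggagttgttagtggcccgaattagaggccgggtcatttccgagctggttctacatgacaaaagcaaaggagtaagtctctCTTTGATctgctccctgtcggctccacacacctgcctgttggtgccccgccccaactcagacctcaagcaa
The match begins 51 bases before the start of Wnt11, which was lowest in EWAT, and 71 bases before that of Wnt5b, which was highest in EWAT. The window of Wnt5b lies inside the gene's span and 28 bases of that of Wnt11 do. Wnt11 has 1 more window and Wnt5b 2 more, with no match. The 2 other member windows with a match, both for CTTTGTT, were those of Dkk1 and Fzd7.

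Frizzleds, the receptors that bind Wnts, differed by depot mainly in Fzd10, Fzd9 and Fzd8, the members of the family with at least a 2-fold range. The 10 Frizzleds summed to 78.4 and 79.4 FPKM in SWAT, 78.1 and 72.0 FPKM in EWAT and 104 and 92.9 FPKM in NWAT. Fzd4 was the most abundant by FPKM in each depot's mean (SWAT 31.9 ± 1.58, EWAT 21.3 ± 6.71, NWAT 27.8 ± 0.156; SD, n = 2), followed by Fzd1 (18.2 ± 1.12, 15.7 ± 0.615 and 22.7 ± 2.76 in the same depots), and in EWAT the mean ± SD ranges of these 2 overlapped. Fzd4 differed in 1 pair, at 0.82 ± 0.18 in SWAT over EWAT (edgeR adjusted p = 0.00753), with EWAT libraries at 91.5 and 56.6 CPM. Fzd10, a Frizzled of the beta-catenin branch, had 6.08 and 4.38 CPM in SWAT, 1.17 and 1.03 CPM in EWAT and 5.44 and 4.95 CPM in NWAT, so it too was low in EWAT. The log2 fold change of Fzd10 was 2.24 ± 0.26 in SWAT over EWAT (edgeR adjusted p = 4.35e-05) and -2.23 ± 0.26 in EWAT over NWAT (edgeR adjusted p = 6.56e-05). Fzd9 was found almost only in EWAT, with 1 and 1 reads in SWAT, 14 and 23 in EWAT and 0 and 1 in NWAT. The ratio was 0.0635 (95% interval 0.00741 to 0.246) in SWAT over EWAT and 35.2 (5.94 to 1428) in EWAT over NWAT, and the fitted log2 fold change of 4.82 ± 0.89 in EWAT over NWAT moved to 3.96 without NWAT replicate 1 and to 7.12 without NWAT replicate 2. Fzd8 had 25.2 and 17.3 CPM in SWAT, 29.8 and 30.7 CPM in EWAT and 49.0 and 37.2 CPM in NWAT. Fzd8 was lower in SWAT than in NWAT (-1.02 ± 0.18, edgeR adjusted p = 0.00280) and in EWAT (-0.51 ± 0.18, edgeR adjusted p = 0.0485), and the call against EWAT was lost without SWAT replicate 2 (-0.26), EWAT replicate 1 (-0.53) or EWAT replicate 2 (-0.48), with DESeq2 size factors (-0.50) and with no count filter (-0.51).

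Fzd1, Fzd2, Fzd5 and Fzd7 differed in the joint test by less than 2-fold between depot means. Fzd1 and Fzd5 were lowest in EWAT, at 63.9 to 65.8 and 21.9 to 22.5 CPM, Fzd7 was lowest in SWAT, at 40.1 to 40.3 CPM, and Fzd2 was highest in NWAT, at 52.0 to 60.4 CPM. The calls of Fzd1 and Fzd5 in SWAT over EWAT (0.44 ± 0.11 and 0.37 ± 0.11) were lost without SWAT replicate 2 (0.40 and 0.24) and on library totals alone (0.21 and 0.13). They were also lost in limma on log2 (FPKM + 1) values (0.20 and 0.10) and on log2 (FPKM + 0.1) values (0.21 and 0.13), and that of Fzd5 in DESeq2 (0.38) and without EWAT replicate 1 (0.34). Those of Fzd7, at -0.38 ± 0.09 in SWAT over EWAT and -0.40 ± 0.09 in SWAT over NWAT, were lost without either SWAT replicate (-0.39 and -0.38 in SWAT over EWAT, -0.40 and -0.39 in SWAT over NWAT), the second also without NWAT replicate 1 (-0.37) or 2 (-0.42). Those of Fzd2, at -0.52 ± 0.12 in SWAT over NWAT and -0.43 ± 0.12 in EWAT over NWAT, were lost without NWAT replicate 1 (-0.41 and -0.32), and the first also without SWAT replicate 2 (-0.40). Fzd1, Fzd2 and Fzd7 are close relatives with counts that were not whole in 4, 5 and 3 of the 6 libraries, and their values are uncertain to that extent. The same limit holds for other tested members. Counts were not whole in all 6 libraries for Wnt2, Wnt5a, Wnt16, Sfrp1, Lgr5, Fzd3 and Znrf3. They were not whole in 5 for Dkk2, Wnt4 and Fzd6, in 4 for Ror1, in 2 for Rspo1 and in 1 for Lrp5. Fzd3, at 3.10 to 4.96 CPM, and Fzd6, at 0.437 to 0.674 CPM, did not pass (joint edgeR adjusted p = 0.128 and 0.975).

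Among the co-receptors, Lrp5 was highest in SWAT, with 146 and 157 CPM in SWAT, 44.0 and 41.4 CPM in EWAT and 66.0 and 59.7 CPM in NWAT. The 3 depots did not overlap. Its log2 fold change was 1.83 ± 0.11 in SWAT over EWAT (edgeR adjusted p = 1.34e-07), 1.27 ± 0.10 in SWAT over NWAT (edgeR adjusted p = 6.52e-06) and -0.56 ± 0.10 in EWAT over NWAT (edgeR adjusted p = 0.00218). Lrp6 differed less, at 249 and 283 CPM in SWAT, 174 and 128 CPM in EWAT and 216 and 218 CPM in NWAT, with 0.81 ± 0.14 in SWAT over EWAT (edgeR adjusted p = 0.00105). By FPKM, Lrp5 and Lrp6 stood at 26.4 ± 1.86 and 25.9 ± 3.09 in SWAT, 8.73 ± 0.219 and 17.1 ± 3.46 in EWAT, and 12.5 ± 0.962 and 24.4 ± 0.799 in NWAT (SD, n = 2). Lrp5 made up 50.5% of their summed FPKM in SWAT, 33.8% in EWAT and 33.9% in NWAT. The call of Lrp6 in EWAT over NWAT (-0.52 ± 0.14, edgeR adjusted p = 0.0189) was lost without EWAT replicate 2 (-0.32), NWAT replicate 1 (-0.52) or NWAT replicate 2 (-0.51). Ror1, a receptor of Wnt5a, ran the other way from Lrp5 and was high in EWAT, with 27.2 and 23.5 CPM in SWAT, 57.0 and 57.0 CPM in EWAT and 26.9 and 27.2 CPM in NWAT. It differed by -1.17 ± 0.11 in SWAT over EWAT (edgeR adjusted p = 6.37e-06) and by 1.07 ± 0.11 in EWAT over NWAT (edgeR adjusted p = 1.90e-05), and SWAT and NWAT overlapped. Ror2, its paralogue, had 24.2 and 20.3 CPM in SWAT, 15.1 and 16.4 CPM in EWAT and 18.8 and 16.2 CPM in NWAT. The call of Ror2 in SWAT over EWAT (0.49 ± 0.13, edgeR adjusted p = 0.0120) was lost without SWAT replicate 1 (0.36), on library totals alone (0.26) and in limma on both FPKM scales (0.21 and 0.25).

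R-spondins were strongly divided between depots, with Rspo1 and Rspo3 low in SWAT and Rspo2 high there. Rspo1 had 3.89 and 4.01 CPM in SWAT, 56.6 and 59.0 CPM in EWAT and 29.4 and 26.8 CPM in NWAT. Rspo3 had 3.34 and 2.90 CPM in SWAT, 30.2 and 33.2 CPM in EWAT and 10.5 and 9.65 CPM in NWAT. For both, the order of depots was the same and no depot overlapped another. The log2 fold change of Rspo1 was -3.87 ± 0.13 in SWAT over EWAT (edgeR adjusted p = 1.77e-09), -2.83 ± 0.13 in SWAT over NWAT (edgeR adjusted p = 6.04e-08) and 1.04 ± 0.10 in EWAT over NWAT (edgeR adjusted p = 1.88e-05). That of Rspo3 was -3.34 ± 0.15 in SWAT over EWAT (edgeR adjusted p = 1.41e-08), -1.69 ± 0.15 in SWAT over NWAT (edgeR adjusted p = 1.40e-05) and 1.65 ± 0.12 in EWAT over NWAT (edgeR adjusted p = 2.35e-06).  Wt1 followed the same order of depots. So did the sum of the 7 mesothelial markers other than Wt1 and Krt19, at 0.329 and 1.16 CPM in SWAT, 8.73 and 8.26 CPM in EWAT and 6.82 and 5.38 CPM in NWAT. That match depends on leaving out Krt19. With Krt19 the sum was highest in NWAT, at 13.2 and 11.6 CPM against 9.34 and 9.07 CPM in EWAT. Muc16, 1 of the 7, was also higher in NWAT than in EWAT. The part of mesothelial cells in these values was not tested. Rspo2 had 4.22 and 4.06 CPM in SWAT, 1.17 and 0.853 CPM in EWAT and 0.572 and 0.388 CPM in NWAT, and both SWAT libraries lay above the other 4. It differed by 2.03 ± 0.30 in SWAT over EWAT (edgeR adjusted p = 2.83e-04) and 3.09 ± 0.34 in SWAT over NWAT (edgeR adjusted p = 5.30e-05). Rspo2 did not reach the count minimum in both NWAT libraries, so its p against NWAT follows in part from the filter and is no support. The 4 R-spondins summed to 4.30 and 4.83 FPKM in SWAT, 46.4 and 50.2 FPKM in EWAT and 21.6 and 19.5 FPKM in NWAT. On GRCm38.p6, Rspo1 lies on chromosome 4 from 124986401 to 125009102, Rspo2 on chromosome 15 from 43020788 to 43171594 and Rspo3 on chromosome 10 from 29453106 to 29535867, all protein-coding.

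The R-spondin receptor Lgr4 was highest in NWAT, with 40.3 and 31.4 CPM in SWAT, 53.1 and 43.3 CPM in EWAT and 81.6 and 81.2 CPM in NWAT. The NWAT libraries stood above the other 4, and SWAT libraries lay below both EWAT libraries. Lgr4 differed by -1.18 ± 0.14 in SWAT over NWAT (edgeR adjusted p = 9.43e-05) and -0.76 ± 0.13 in EWAT over NWAT (edgeR adjusted p = 0.00150). In SWAT over EWAT the value was -0.43 ± 0.14 (edgeR adjusted p = 0.0296), and that call was lost without SWAT replicate 2 (-0.26) or EWAT replicate 1 (-0.27). Lgr5, known as a stem cell marker of the gut and a Wnt target, was at low levels and highest in SWAT, with 51 and 52 reads in SWAT, 6 and 2 in EWAT and 19 and 17 in NWAT. The ratio was 15.1 (95% interval 7.39 to 35.9) in SWAT over EWAT, 3.20 (2.17 to 4.81) in SWAT over NWAT and 0.212 (0.0849 to 0.463) in EWAT over NWAT. All 3 pairs passed (edgeR adjusted p = 5.17e-05, 0.00654 and 0.00943). The log2 fold changes were 3.87 ± 0.46, 1.67 ± 0.36 and -2.20 ± 0.53 in that order of pairs. Lgr5 reached the count minimum in SWAT and NWAT alone, so its p against EWAT follows in part from the filter and is no support. The call in SWAT over NWAT was lost without NWAT replicate 2 (1.61) and that in EWAT over NWAT without EWAT replicate 2 (-1.61), and without EWAT replicate 1 the values against EWAT moved to 4.85 in SWAT over EWAT and -3.18 in EWAT over NWAT. In FPKM, Lgr4 took 91.9% of the summed level of Lgr4, Lgr5 and Lgr6 in SWAT, 99.3% in EWAT and 98.7% in NWAT. Lgr6 had 3 to 6 reads a library and was not tested. Znrf3, at 5.87 to 9.23 CPM, did not pass (joint edgeR adjusted p = 0.0618), and its partner Rnf43 had a single read in 1 library.

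**Figure D4:**
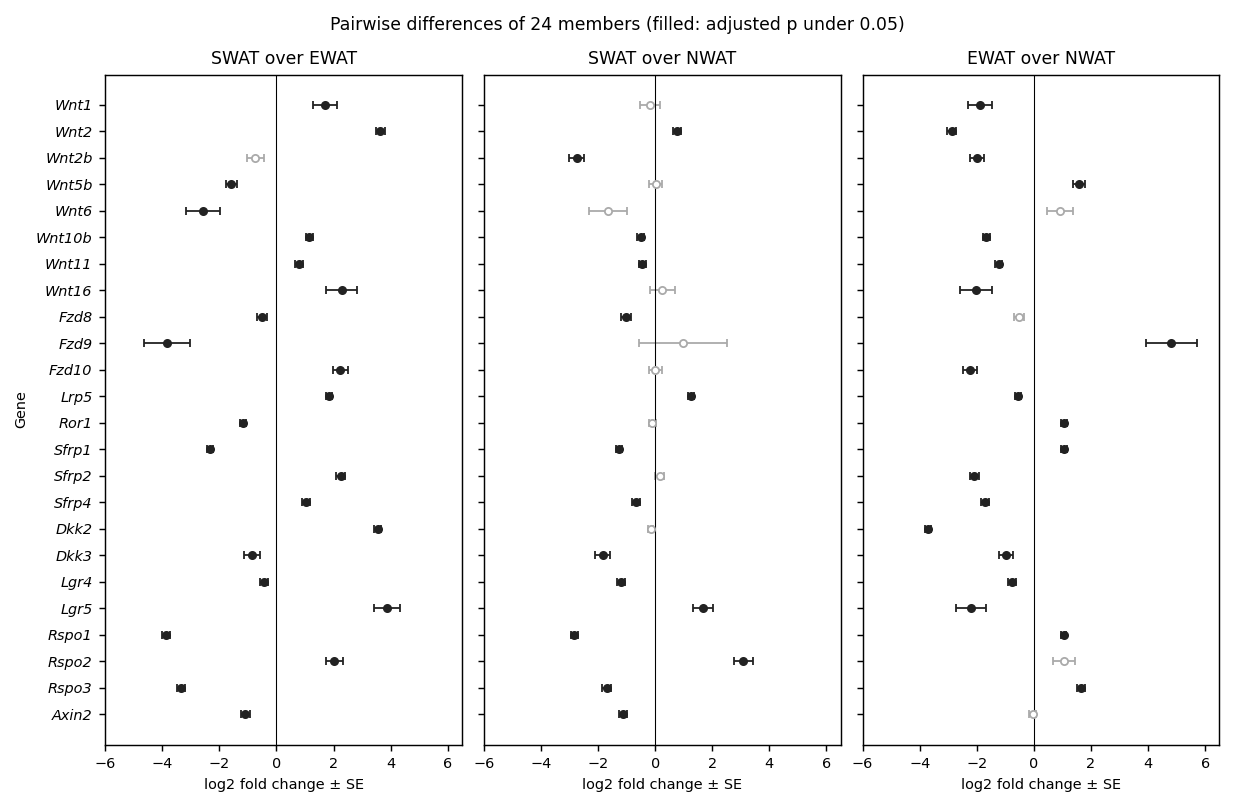
Log2 fold changes (points) with standard errors (bars) from edgeR for the 24 members, in SWAT over EWAT (left), SWAT over NWAT (middle) and EWAT over NWAT (right). Filled points passed at an adjusted p under 0.05. Dkk2 and Wnt2 lie far to the right in SWAT over EWAT and far to the left in EWAT over NWAT, and Rspo1 and Rspo3 lie far to the left in both SWAT panels.

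Axin2, a negative regulator of the pathway that beta-catenin signalling induces in most tissues, was lower in SWAT than in the other depots. It had 10.1 and 9.81 CPM in SWAT, 21.4 and 20.9 CPM in EWAT and 24.8 and 18.9 CPM in NWAT, and the EWAT libraries lay within the range of NWAT. The log2 fold change was -1.08 ± 0.14 in SWAT over EWAT (edgeR adjusted p = 1.32e-04), -1.13 ± 0.14 in SWAT over NWAT (edgeR adjusted p = 1.87e-04) and -0.04 ± 0.13 in EWAT over NWAT (edgeR adjusted p = 0.836). The other common targets did not follow 1 direction. Of 22 targets on the list, 13 were tested, Axin2, Lgr5 and Znrf3 among them. Of these, 5 were higher and 6 lower in SWAT than in EWAT, 6 higher and 3 lower in SWAT than in NWAT, and 4 higher and 2 lower in EWAT than in NWAT. As shares of the 13 these are 38.5% and 46.2%, 46.2% and 23.1%, and 30.8% and 15.4%, where all tested genes gave 18.0% and 18.7%, 9.07% and 9.83%, and 13.3% and 14.0%. The list's median log2 fold change was -0.31, 0.52 and 0.02 in these pairs, where the medians of all genes were -0.01, -0.02 and 0.01.

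Besides Lgr5, the targets Nkd1, Apcdd1, Ccnd1 and Jun were higher in SWAT than in both other depots. Jun, a subunit of the AP-1 factor, rose by less than 2-fold (0.76 ± 0.12 in SWAT over EWAT and 0.78 ± 0.12 in SWAT over NWAT, edgeR adjusted p = 5.35e-04 and 8.52e-04). Myc, a growth-promoting transcription factor, went the way of Axin2, also by less than 2-fold, at 479 and 407 CPM in SWAT, 650 and 701 CPM in EWAT and 698 and 685 CPM in NWAT (-0.61 ± 0.12 in SWAT over EWAT and -0.64 ± 0.12 in SWAT over NWAT, edgeR adjusted p = 0.00234 and 0.00292). Nkd1, an inhibitor of Dishevelled, had 15.5 and 13.8 CPM in SWAT, 8.22 and 8.76 CPM in EWAT and 6.44 and 7.61 CPM in NWAT (0.79 ± 0.14 in SWAT over EWAT and 1.06 ± 0.15 in SWAT over NWAT, edgeR adjusted p = 0.00133 and 3.46e-04). Apcdd1, a membrane inhibitor of Wnt signalling, had 35.9 and 35.3 CPM in SWAT, 15.1 and 15.6 CPM in EWAT and 17.3 and 14.1 CPM in NWAT (1.21 ± 0.12 and 1.18 ± 0.12, edgeR adjusted p = 1.28e-05 and 3.25e-05). Ccnd1, the cell cycle regulator cyclin D1, had 52.1 and 42.9 CPM in SWAT, 11.7 and 13.8 CPM in EWAT and 28.6 and 25.0 CPM in NWAT (1.90 ± 0.14 and 0.83 ± 0.13, edgeR adjusted p = 8.18e-07 and 8.67e-04). Others were high in EWAT. Sox9, a transcription factor of cartilage and progenitors, had 29.3 and 32.1 CPM in SWAT, 91.0 and 95.3 CPM in EWAT and 32.7 and 33.6 CPM in NWAT (-1.60 ± 0.10 in SWAT over EWAT and 1.49 ± 0.10 in EWAT over NWAT, edgeR adjusted p = 2.41e-07 and 9.74e-07). Bambi, a pseudoreceptor that dampens TGF-beta signalling, had 11.1 and 10.1 CPM in SWAT, 36.0 and 43.4 CPM in EWAT and 19.6 and 18.8 CPM in NWAT. Wisp1, a matricellular protein, had 0.877 and 0.685 CPM in SWAT, 3.41 and 4.81 CPM in EWAT and 0.572 and 0.631 CPM in NWAT. Nkd2, a relative of Nkd1, had 8.83 and 8.28 CPM in SWAT, 11.1 and 12.2 CPM in EWAT and 4.44 and 4.22 CPM in NWAT. Its call in SWAT over EWAT (-0.45 ± 0.14, edgeR adjusted p = 0.0298) was lost without SWAT replicate 1 (-0.49), SWAT replicate 2 (-0.40) or EWAT replicate 2 (-0.37). Bambi and Wisp1 were lower in SWAT than in EWAT by -1.91 ± 0.13 and -2.39 ± 0.32 (edgeR adjusted p = 4.51e-07 and 1.50e-04), and Bambi was also lower in SWAT than in NWAT (-0.86 ± 0.13, edgeR adjusted p = 7.32e-04). These targets also respond to other pathways. The transcription factor genes Lef1 and Tcf7 had too few reads to be tested.

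**Figure D5:**
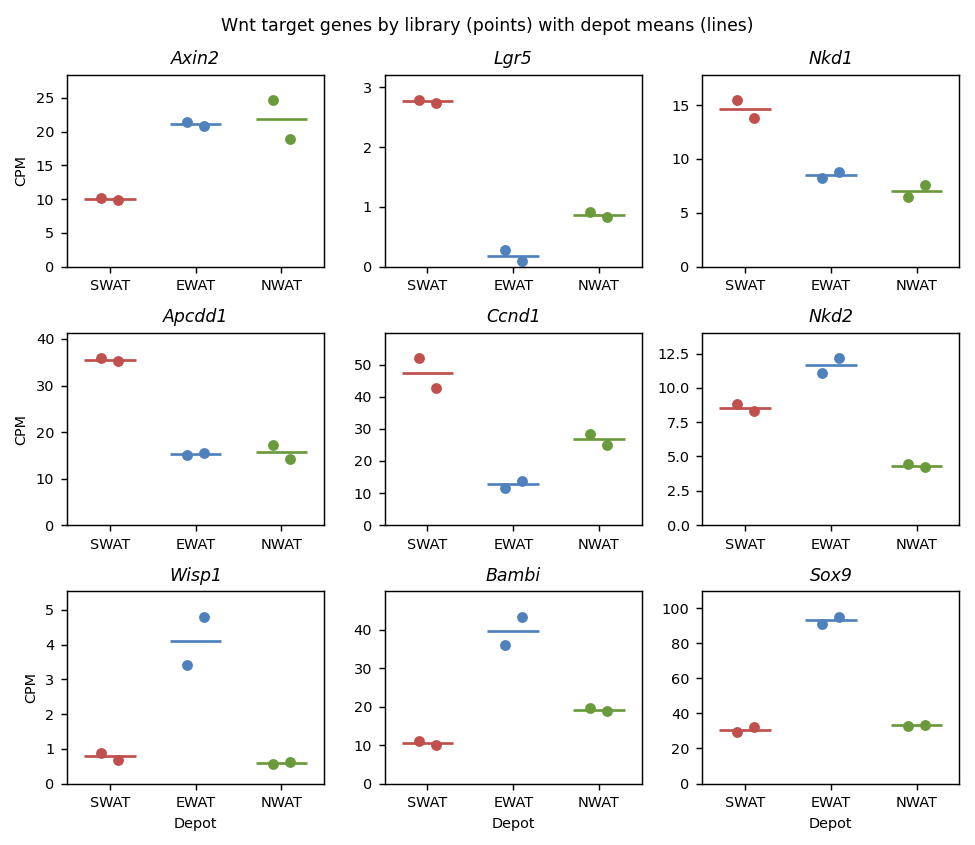
CPM of 9 genes from the list of Wnt targets, with 1 point per library and a line at the depot mean, on axes that start at 0. Axin2 is lowest in SWAT, whereas Lgr5, Nkd1, Apcdd1 and Ccnd1 are highest there, and Nkd2, Wisp1, Bambi and Sox9 are highest in EWAT.

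Of 24 tested intracellular components of the beta-catenin branch, 8 were higher and 4 lower in SWAT than in EWAT, 7 higher and 2 lower in SWAT than in NWAT, and 2 higher and 4 lower in EWAT than in NWAT, with list medians of 0.10, 0.02 and -0.16. The shares were 33.3% and 16.7%, 29.2% and 8.33%, and 8.33% and 16.7%, so that the lower calls in all 3 pairs and the higher calls in EWAT over NWAT were near or below those of all genes. Those with a difference of at least 2-fold were the Groucho co-repressors Tle2 and Tle1 and the TCF factor Tcf7l2. Tle2 had 28.3 and 33.8 CPM in SWAT, 4.90 and 3.95 CPM in EWAT and 17.3 and 14.8 CPM in NWAT, with 2.81 ± 0.16 in SWAT over EWAT (edgeR adjusted p = 1.05e-07). Tle1 was highest in EWAT, with 30.5 and 32.7 CPM in SWAT, 72.8 and 69.2 CPM in EWAT and 25.6 and 20.9 CPM in NWAT, with -1.17 ± 0.11 in SWAT over EWAT and 1.61 ± 0.12 in EWAT over NWAT (edgeR adjusted p = 1.16e-05 and 1.75e-06). Tcf7l2 had 57.8 and 70.5 CPM in SWAT, 30.3 and 28.2 CPM in EWAT and 39.9 and 38.4 CPM in NWAT, with 1.13 ± 0.12 in SWAT over EWAT (edgeR adjusted p = 1.63e-05). Smaller calls of Tle1 in SWAT over NWAT (0.44) and of Tcf7l2 in EWAT over NWAT (-0.42) were lost without single libraries, Tle1 on dropping the first (0.49) or second (0.39) SWAT library or NWAT replicate 2 (0.31), and Tcf7l2 without EWAT replicate 2 (-0.37), NWAT replicate 1 (-0.39) or NWAT replicate 2 (-0.45). Ctnnb1, which codes for beta-catenin, ranged from 264 to 355 CPM with -0.34 ± 0.11 in SWAT over NWAT (edgeR adjusted p = 0.0448), a call lost on leaving out any library of either depot (-0.29 to -0.38) and with no count filter (-0.33).

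In the planar polarity and non-canonical list, Ptk7, a pseudokinase co-receptor, had 1.37 and 1.90 CPM in SWAT, 42.8 and 42.8 CPM in EWAT and 20.7 and 14.6 CPM in NWAT. No depot overlapped another. Its log2 fold change was -4.70 ± 0.21 in SWAT over EWAT (edgeR adjusted p = 2.74e-08), -3.42 ± 0.22 in SWAT over NWAT (edgeR adjusted p = 1.37e-06) and 1.28 ± 0.15 in EWAT over NWAT (edgeR adjusted p = 1.08e-04), the same order of depots as for Rspo1 and Rspo3. Prickle1, a core polarity protein, had 25.0 and 25.1 CPM in SWAT, 44.8 and 48.1 CPM in EWAT and 23.4 and 21.6 CPM in NWAT, and was high in EWAT. Nfatc4, a calcium-regulated transcription factor, had 77.5 and 70.9 CPM in SWAT, 36.5 and 31.9 CPM in EWAT and 45.4 and 48.5 CPM in NWAT, and its call in EWAT over NWAT (-0.46) was lost without NWAT replicate 2 (-0.41). Its relative Nfatc2 had 2.74 and 3.85 CPM in SWAT, 8.36 and 6.83 CPM in EWAT and 3.67 and 5.92 CPM in NWAT, with -1.20 ± 0.26 in SWAT over EWAT (edgeR adjusted p = 0.00403). Of the 14 tested genes of the list, 3 were higher and 4 lower in SWAT than in EWAT, 3 higher and 2 lower in SWAT than in NWAT, and 2 higher and 1 lower in EWAT than in NWAT. The shares of 21.4% and 28.6%, 21.4% and 14.3%, and 14.3% and 7.14% lie near those of all genes in several of these directions. Of 17 tested genes for Wnt secretion and further extracellular or membrane modulators, 7 were higher and 4 lower in SWAT than in EWAT, 5 higher and 2 lower in SWAT than in NWAT, and 4 higher and 4 lower in EWAT than in NWAT. These are 41.2% and 23.5%, 29.4% and 11.8%, and 23.5% and 23.5% of the list, beside the shares of all genes given with the targets. Nkd1, Nkd2 and Apcdd1 are on both this list and that of the targets, and all were among the 5 higher in SWAT than in NWAT. Gpc3, a glypican that binds Wnts, had 194 and 206 CPM in SWAT, 484 and 455 CPM in EWAT and 785 and 804 CPM in NWAT (-1.23 ± 0.11 in SWAT over EWAT and -1.99 ± 0.11 in SWAT over NWAT, edgeR adjusted p = 6.06e-06 and 4.97e-07). Cthrc1, a secreted protein that favours the polarity branch, had 7.02 and 8.75 CPM in SWAT, 1.49 and 2.47 CPM in EWAT and 2.19 and 1.07 CPM in NWAT (1.99 ± 0.32 and 2.27 ± 0.33, edgeR adjusted p = 6.25e-04 and 5.79e-04). Its value in SWAT over NWAT was 2.88 without NWAT replicate 1. Lrp4, a receptor related to Lrp5 and Lrp6, had 11.1 and 10.6 CPM in SWAT, 7.33 and 6.65 CPM in EWAT and 19.8 and 19.7 CPM in NWAT (-1.50 ± 0.13 in EWAT over NWAT, edgeR adjusted p = 5.76e-06). Draxin, a secreted guidance protein that binds LRP6, had 5.32 and 5.01 CPM in SWAT, 2.24 and 1.89 CPM in EWAT and 3.48 and 2.62 CPM in NWAT, with 1.32 ± 0.24 in SWAT over EWAT (edgeR adjusted p = 0.00121). The call of Draxin in SWAT over NWAT (0.76) was lost on leaving out any of its libraries (SWAT replicate 1 0.72, SWAT replicate 2 0.80, NWAT replicate 1 0.98, NWAT replicate 2 0.57). Wls, the carrier that brings Wnts to the surface, stood between 113 and 146 CPM and passed in none of the 3 pairs.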

How the data were processed

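Bulk RNA of sorted adipose stem cells was compared between 3 depots with 2 libraries each. The authors deposited estimated counts for each gene symbol, with no normalization and 31.7% to 33.1% of them not whole. They also deposited FPKM values, per the file headers, which divide by gene length and depth. The aligner, the counter, its strand setting and the annotation were not stated. The submitters' processing notes list GRCm38.p6, Seurat and Cell Ranger with no role given. Columns were matched to samples by depot letter and replicate number. Both deposited tables hold 2 columns that match no label and were not used, so the mesenteric depot is not analysed here and 3 of 6 planned pairs were left out. For 1 duplicated symbol, the row with more reads was kept.

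Counts were rounded and tested in edgeR 4.0.16 (R 4.3.3) with TMM factors of 0.893 to 1.08, filterByExpr by depot (count minimum 10, total minimum 15) and 1 robust quasi-likelihood model over 13694 genes, with 3 residual degrees of freedom and a common biological coefficient of variation of 0.0979. P-values were adjusted by Benjamini-Hochberg over all tested genes at 0.05. SE is the absolute log2 fold change over the square root of F. DESeq2 1.42.0, limma 3.58.1 on log2 FPKM, other scalings, other filters and leaving out each library were alternatives.

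Members, lists and tests were chosen with earlier results of these data known. Named members passed the joint test with at least a 2-fold range of depot means, and others are given by ranges. Pathway genes outside the members are named from fixed lists among those with a called difference of at least 2-fold, up to 6 a list, and the rest that are named (Nkd1, Jun, Myc, Ctnnb1, Wls, Lef1 and Tcf7) were chosen after their values were seen. Members' exons overlap an annotated gene on the other strand for 8 members (Axin2, Fzd5, Fzd6, Rspo3, Sfrp2, Wnt11, Wnt5a and Wnt7b), whose reads cannot be told apart if counting ignored strand. Protein sequences were not used here.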

Additional observations from a re-analysis of the deposited data

How the results depend on the processing

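Over 14 alternatives, the number of members called was 29 to 33 in the joint test (33 as reported), 22 to 30 in SWAT over EWAT (29), 13 to 21 in SWAT over NWAT (18), 20 to 27 in EWAT over NWAT (26) and 24 to 29 for members set apart in a depot (29). No count moved by more than 1.5 times. Of 1542 values of single members in a pair, 1445 stayed on the same side of the threshold with the same direction, 64 lost a call, 33 gained one and 0 turned round. DESeq2 called 30, 27, 18 and 25 members in the joint test and the 3 pairs. Limma on log2 (FPKM + 1) values called 31, 28, 19 and 25, and on log2 (FPKM + 0.1) values 31, 29, 20 and 24. Leaving out 1 library gave 29 to 32 in the joint test, 22 to 30, 13 to 21 and 20 to 27 in the pairs and 24 to 29 set apart. With a depot at 1 library, that library was assumed to vary like the others. With the replicate number as a block, 33, 30, 18 and 27 members were called and 29 were set apart. The labels do not say that a number marks a shared animal or day. The deviations of same-numbered libraries correlated at 5.49e-04 to 0.110 over genes. With so few libraries these values cannot decide whether an animal or day was shared, and pairing is unknown. Wnt2b in SWAT over EWAT (-0.74) and Fzd8 in EWAT over NWAT (-0.49) gained calls under the block. On library totals alone or on log2 (FPKM + 1) values, Wnt5a (-0.37 and -0.29) and Wnt4 (-0.88 and -0.30) were lower in SWAT than in EWAT past the threshold. Calls of pathway genes outside the members that were lost without 1 library, an alternative added after seeing the data, are given with each gene. Further calls lost in limma on log2 (FPKM + 1) values were those of Fzd2 (-0.36) and Lgr5 (-0.19) in EWAT over NWAT, of Tcf7l2 (-0.31) in EWAT over NWAT, and of Tle1 (0.27) and Draxin (0.25) in SWAT over NWAT, and that of Nkd2 in SWAT over EWAT was lost in DESeq2 (-0.43). Depth limits Fzd9, Lgr5, Wnt1, Wnt6 and Wnt16, with 1 to 103 reads a depot.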

Other observations

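Rspo4 stood apart in 1 library. It had 1 and 30 reads in the SWAT libraries and 0 in all 4 EWAT and NWAT libraries, so its level in SWAT rests on replicate 2, and it did not pass the filter on low counts. Dkk1, a Dickkopf often used as a Wnt target, had 8 and 6 reads in SWAT, 11 and 4 in EWAT and 1 and 9 in NWAT, with a ratio of 1.56 (95% interval 0.646 to 3.94) in SWAT over NWAT and 1.43 (0.600 to 3.55) in EWAT over NWAT, so a difference was not detectable at this depth.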
